A study of Mus musculus with 2 samples.

Results

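Fignl2, the gene of fidgetin-like 2, had 3 of the 276 distinct regions that the authors' deposited table lists as differently methylated between 2 libraries of mouse hippocampal DNA. The members were selected by symbol from that list, and the list itself was chosen by the measured difference between the libraries, so the difference at Fignl2 is a description and was not tested. In the group labelled F1m-GCS, here the choline library, the mothers ate feed with choline chloride at 5 g/kg between embryonic day 9 and delivery. In the group labelled F1m-CON, here the control library, the mothers' feed held 1.1 g/kg. Both sets of offspring ate a basal diet after birth and entered behavioural tests at 2 months. The labels give no strain, no age at which tissue was taken and no number of animals behind a library. Each diet had 1 library and hence no replicates. The comparisons below are between these libraries and not between diets. The labelled tissue could not be checked against marker genes, since the table holds methylation alone. The libraries were made by reduced representation bisulfite sequencing (RRBS), in which the enzyme MspI cuts DNA at the letters CCGG and bisulfite turns unmethylated cytosines into uracil, so that methylated cytosines are read as C.

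Fidgetin-like 2 belongs to the AAA ATPases, enzymes that use ATP to remodel other proteins. Its relatives spastin, katanin and fidgetin sever microtubules, the tubulin filaments that carry transport in axons and dendrites, and fidgetin-like 2 is known as a microtubule regulator near the edge of moving cells and in growing axons. Methyl groups on vertebrate DNA sit mainly on cytosines followed by guanine (CpG). Stretches dense in CpG often lie at gene starts and are mostly free of methylation there, while gene bodies are usually methylated. RRBS reads such CpG-rich stretches in preference, inside genes as well as at their starts.

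All 3 Fignl2 regions lay within the coding sequence on the minus strand of chromosome 15, and no region carried a line for another gene or another element. In the direction of the gene, the first region ran from 100884403 down to 100884158 (246 bp), the second from 100883583 to 100883552 (32 bp) and the third from 100883477 to 100883248 (230 bp), in the coordinates as deposited. The deposited coding element spans 100882896 to 100884830 and is 1935 bp long. The coordinates are not those of GRCm38, where RefSeq places the coding sequence on chromosome 15 at 101052465 to 101054399, also minus strand and also 1935 bp in 1 piece. The sequences were therefore read from the RefSeq coding sequence (GRCm38.p6) by position counted from its first base, and no genome coordinate was carried over. In that placement all 3 stretches began and ended with CG. Of 780 placements of the 3 stretches along the coding sequence at their deposited spacing, this was the only 1 with CG at all 6 ends. Whether the sequence is identical in the build the authors used was not checked.

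The 3 stretches are shown on the coding strand, 5′ to 3′, to let their CpG content be compared with the number of cytosines counted in each, with every CpG in capitals.
the first region, coding bases 428 to 673: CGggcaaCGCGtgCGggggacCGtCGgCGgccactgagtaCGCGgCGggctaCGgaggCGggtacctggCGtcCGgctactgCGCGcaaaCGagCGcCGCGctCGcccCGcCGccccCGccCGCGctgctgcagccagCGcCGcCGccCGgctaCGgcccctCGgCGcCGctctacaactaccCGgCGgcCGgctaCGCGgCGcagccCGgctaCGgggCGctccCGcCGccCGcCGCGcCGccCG
the second region, coding bases 1248 to 1279: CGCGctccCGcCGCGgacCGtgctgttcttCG
the third region, coding bases 1354 to 1583: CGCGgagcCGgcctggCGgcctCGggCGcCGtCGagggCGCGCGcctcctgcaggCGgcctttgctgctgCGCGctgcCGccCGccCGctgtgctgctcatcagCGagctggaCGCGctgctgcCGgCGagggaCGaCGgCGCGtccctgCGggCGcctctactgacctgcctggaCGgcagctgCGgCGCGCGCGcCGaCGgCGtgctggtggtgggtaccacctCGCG

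The first stretch held 50 CpG sites in 246 bases, the most of any stretch of that length in the coding sequence, and 81.7% of its bases were G or C. The second held 7 CpG sites in 32 bases (75% G or C), and the third held 39 in 230 bases (78.3%), where the densest stretch of that length held 47. Over the whole coding sequence there were 249 CpG sites, or 12.9 per 100 bases, and 73.6% of bases were G or C. The 3 stretches cover 26.3% of the coding sequence and hold 96 of its CpG sites (38.6%).

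The deposited CpG number of a region counts cytosines on both strands. It was 55, 14 and 74 for the first, the second and the third region, whereas 1 strand of those stretches holds 50, 7 and 39 CpG sites. No stretch of 230 bases in the coding sequence holds more than 47, so 74 cannot be a count on 1 strand wherever the third region is placed. In the second region all 14 cytosines of its 7 CpG sites were counted. In the first region 55 of 100 possible cytosines were counted, and in the third 74 of 78.

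Cutting the reference at every MspI site showed which DNA fragments could carry these cytosines. The labels give inserts of 40 to 220 bp as selected. The third region held 2 complete MspI sites and covered a 116 bp fragment in full and 106 bases of a 108 bp fragment, both of selected size, together with the last 8 bases of a 120 bp fragment. The second region lay in that same 120 bp fragment (coding bases 1242 to 1361), near its other end. The second region and the third thus share a fragment, and their calls may come in part from the same molecules. The first region held 5 MspI sites and touched 6 fragments, of which 3 were of selected size (109, 75 and 54 bp) and 3 were too short (35, 7 and 18 bp). The selected fragments hold 39 of its 50 CpG sites, which is 78 cytosines on both strands. Of 29 fragments that touch the coding sequence, 18 were of selected size, and the 3 regions touched 6 of them. How deeply the other 12 were read was not analysed here, since the table lists differing regions alone.

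**Figure D1:**
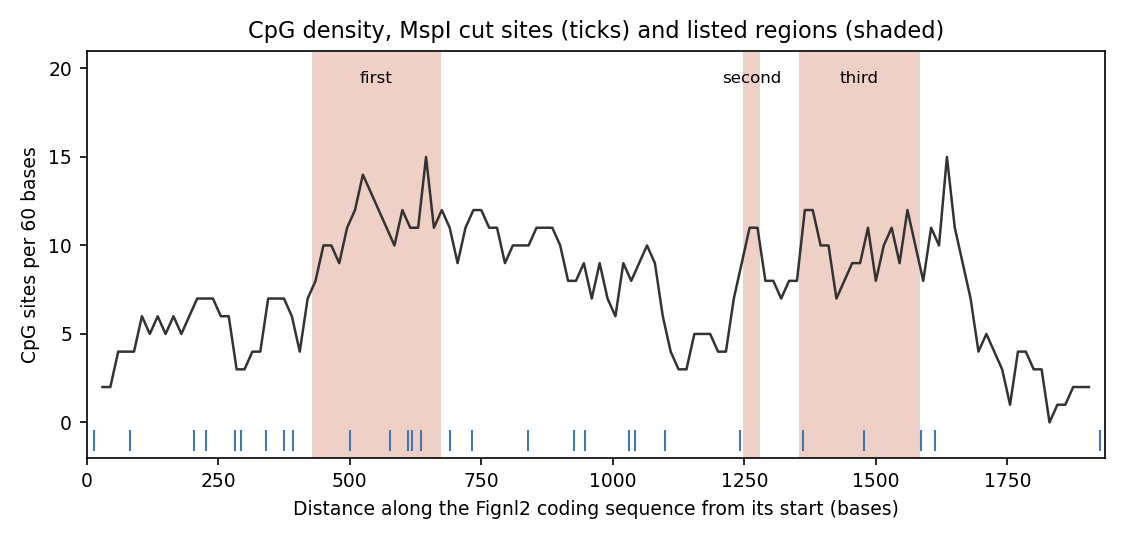
CpG sites per 60 bases of the RefSeq Fignl2 coding sequence (line, in steps of 15 bases) against distance from its first base, with MspI cut sites as ticks below and the 3 listed regions shaded. The first region lies in the earlier part of the coding sequence over 5 cut sites, and the second and the third lie close together in the later part.

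The regions formed 2 places within the gene. Between the second region and the third lay 74 bases, and between the first and second 574, so that the regions spanned 1156 bp in all. The first began 427 bases after the start of the coding sequence, and the third ended 352 bases before its end. None therefore reached the start codon, and the promoter was not among the listed regions.

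Methylation was higher in the choline library at all 3 regions. In the first region 239 of 1534 CpG calls were methylated in the control library, a level of 15.6% (exact Clopper-Pearson 95% interval 13.8 to 17.5), against 258 of 972 calls in the choline library, 26.5% (23.8 to 29.4). That is 11.0 percentage points higher, or 1.70 times the control level. In the second region 92 of 710 calls were methylated in the control library, 13.0% (10.6 to 15.7), against 154 of 604 in the choline library, 25.5% (22.1 to 29.2). This difference of 12.5 points, or 1.97 times, was the largest of the 3 regions and fell in the shortest of them. In the third region 696 of 3861 calls were methylated in the control library, 18.0% (16.8 to 19.3), against 1100 of 3906 in the choline library, 28.2% (26.8 to 29.6). The calls of the third region were worked out over 76 cytosines, since the listed 74 gave no whole calls. The difference there of 10.1 points, or 1.56 times, was the smallest of the 3 regions and lay in the one with the most calls.

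Within each library the 3 regions stood at similar levels. The control levels ran from 13.0% to 18.0%, a range of 5.07 points, with the second region lowest and the third highest, and the intervals of those regions did not overlap. The choline levels ran from 25.5% to 28.2%, a range of 2.67 points, and all 3 intervals overlapped. Summed over the regions, 1027 of 6105 control calls (16.8%, 15.9 to 17.8) and 1512 of 5482 choline calls (27.6%, 26.4 to 28.8) were methylated. The mean of the 3 differences was 11.2 points. In both libraries most calls in all 3 regions were unmethylated.

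The intervals above take each call as independent, although a read that crosses the third region passes many CpG sites at once. Depth, in reads per cytosine, was 27.9 for the control and 17.7 for the choline library at the first region, 50.7 and 43.1 at the second, and 50.8 and 51.4 at the third. Depth in the choline library was thus 0.634, 0.851 and 1.01 times the control depth at the first, the second and the third region. The median over the 276 listed regions was 0.672, and 218 of them were deeper in the control library. Whether depth bears on the differences was not tested. On calls, the intervals of the libraries did not overlap in 3 of 3 Fignl2 regions, against 68.1% of the 260 listed regions for which calls were counted. All listed regions differed by at least 10 points, and the Fignl2 regions had at least 604 calls in each library. Separate intervals follow from that selection and number of calls, so the 3 of 3 is no result about Fignl2. With depth in place of calls, the level of the third region corresponded to 9 of 51 reads in the control (8.40 to 30.9%) and to 14 of 51 in the other library (15.9 to 41.7%). The second then had 7 of 51 reads (5.70 to 26.3%) and 11 of 43 (13.5 to 41.2%), and the first 4 of 28 (4.03 to 32.7%) and 5 of 18 (9.70 to 53.5%). These intervals overlapped in all 3 regions, as they did in every listed region (0% apart among 276), so this count says nothing particular about Fignl2. Mean depth per cytosine is a low stand-in for the reads of the first and the third region, which span several fragments and are counted on both strands, and an overlap of intervals is no test of the difference. The reads carried no stated molecular identifiers, and all intervals cover counting error only.

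**Figure D2:**
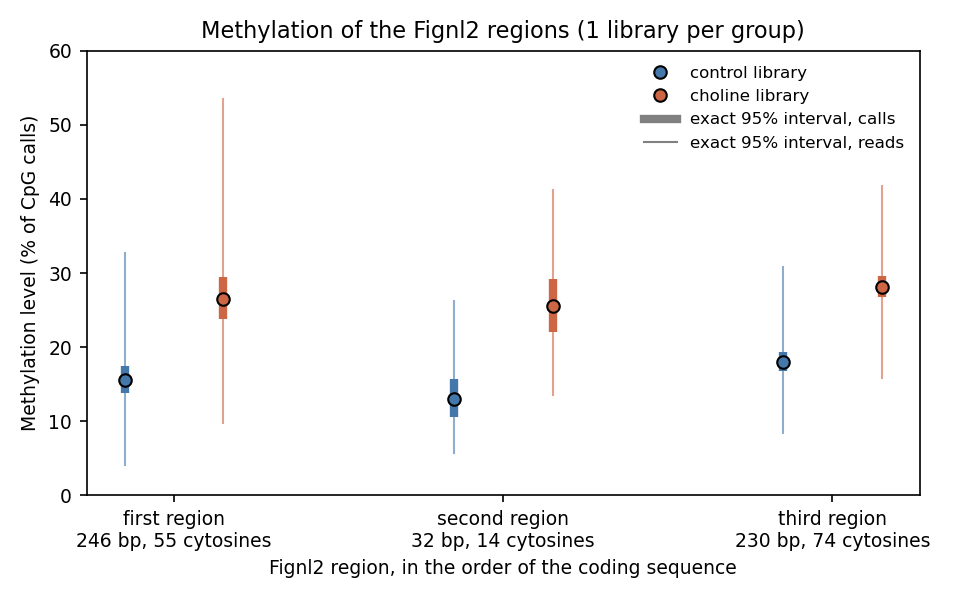
Methylation level in percent of CpG calls (points) of the 3 Fignl2 regions in the control and the choline library, with exact 95% intervals on calls (thick bars) and with reads as the unit (thin bars). The choline point lies 10.1 to 12.5 points above the control point in each region, with thick bars apart and thin bars overlapping.

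In the authors' deposited table the p-value was 3.77e-11 for the first region, 7.29e-09 for the second and 4.64e-26 for the third, the smallest of the 276. For the first and second it was the p of a Fisher's exact test, two-sided, on the calls given above. For the third it was 1.73 times that p. There the level and depth gave whole calls over 76 cytosines and not over the listed 74, so the calls behind the authors' p-value could not be recovered. These p-values take each call as independent and compare the 2 libraries alone. They depend on the number of calls as well as on the difference, and 255 listed regions differed by more than the third. The smallest p-value is thus not the largest difference.

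Direction at Fignl2 was that of most of the list. Of all 276 listed regions 73.6% were higher in the choline library, and the 3 of 3 at Fignl2, 2 of them on a shared fragment, are read against that share and not as a result about the gene. Among the other listed regions that touch coding sequence 83 of 103 were higher (80.6%). Of the other regions with at least 30 cytosines, 19 of 24 were higher (79.2%). All of them come from the same 2 libraries, so regions are not replicates and no interval is given for these shares. The size of the difference at Fignl2 was ordinary or small for this list, in which no region differed by less than 10 points or 1.5 times. The absolute difference was larger than that of the first region in 197 listed regions, than that of the second in 137 and than that of the third in 255. The third region therefore lay close to the smallest difference listed, and regions outside the list were not analysed here. The median absolute difference of the other 273 regions was 12.5 points (quartiles 10.8 and 16.1).

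**Figure D3:**
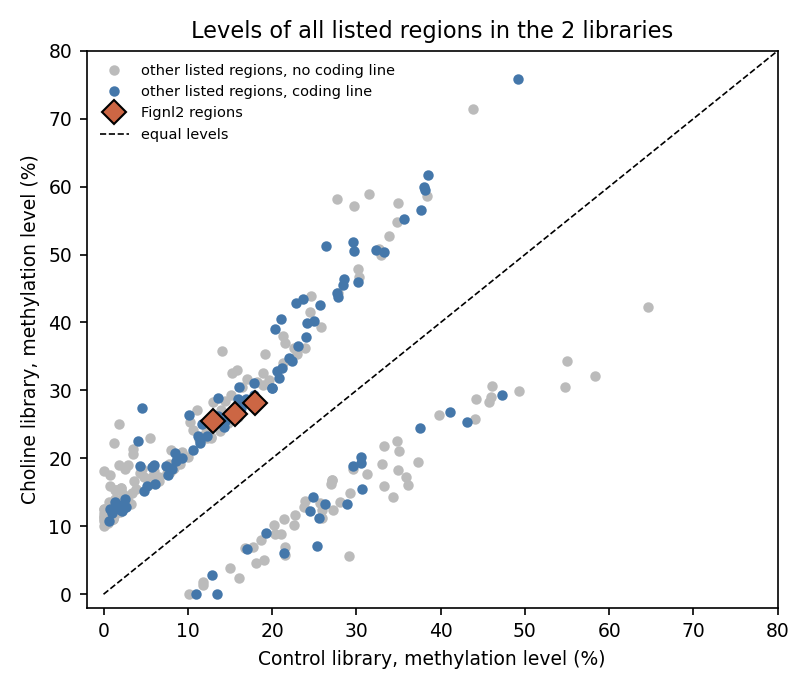
Methylation level in the choline library against the control library, in percent, for all 276 listed regions, with Fignl2 as diamonds, other regions with a coding line in blue and the rest in grey. The Fignl2 regions lie above the line of equal levels, with control levels of 13.0 to 18.0% and choline levels of 25.5 to 28.2%.

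The Fignl2 regions ranked high in the list by density of cytosines, and 2 of them by number of cytosines and 2 by depth. These values were known when the gene was chosen and were not tested. By number of cytosines the third region came next after a region of Rbmxl2, a germline RNA-binding protein gene (77 in 327 bp), and the first region (55) came directly after the third. The second region held 14, and 70 listed regions held more. The median of the other 273 regions was 9 cytosines. Per 100 bp the first, the second and the third region held 22.4, 43.8 and 32.2 cytosines, against a median of 8.77 in the other regions and 10.5 in the other coding regions. The median of the 3, 32.2, lay above 264 of the 273 other regions (96.7%). Over all listed regions, 26 were denser than the first, 2 were denser than the second and 10 were denser than the third. Of the 184 listed regions of at least 100 bp, none was denser than the third, and 3, the third among them, were denser than the first. This density rests on the cytosines counted, 55 of 100 possible in the first region and 74 of 78 in the third, and not on sequence alone. By sequence the first stretch, with 50 CpG sites in 246 bases, was denser than the third, with 39 in 230. In depth, the third region was exceeded by 4 listed regions in each library and the second by 5 regions of the control and 9 of the choline library, whereas the first lay in the middle of the list with 102 and 120 deeper regions.

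**Figure D4:**
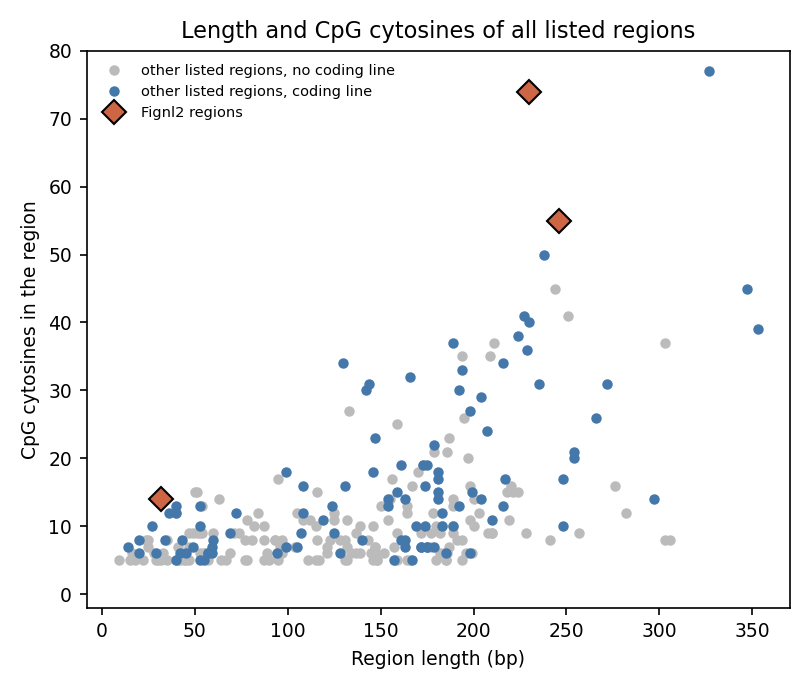
Number of CpG cytosines, counted on both strands, against region length in bp for all 276 listed regions, with Fignl2 as diamonds, other regions with a coding line in blue and the rest in grey. The 230 bp and 246 bp regions of Fignl2 hold 74 and 55 cytosines, and the 32 bp region holds 14.

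The regions nearest to the third in cytosine number differed in both directions. Rbmxl2 had a level of 23.0% in the control library and of 36.5% in the choline library. The coding region of Sipa1, a GTPase-activating protein for Rap, had 50 cytosines and came next below the first Fignl2 region. Its levels were 17.9% and 31.1% and its depths 38.2 and 38.4. Of the other 4 nearest, Plekhg4 (24.6% and 43.9%) and a region of 4930599N23Rik and Parp12 (17.0% and 31.6%) were higher in the choline library, whereas a region of Eras and Pcsk1n (47.3% and 29.3%) and one of Nrxn2, a presynaptic adhesion gene (24.5% and 12.2%), were lower.

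Besides Fignl2, Mn1, Bcor and Cux2 had at least 3 listed regions. Mn1, a transcriptional coactivator, was the most similar in layout, with 4 regions in 1 coding element over 1729 bp. They held 8.29 to 33.3 cytosines per 100 bp and differed by -10.5 to 19.8 points, 3 higher and 1 lower in the choline library. Bcor, a corepressor, also had 3 higher and 1 lower, over 47621 bp. Cux2, a homeobox factor of upper-layer neurons, had 3 higher, by 17.7 to 22.6 points, but spread over 169093 bp at 6.56 to 12.7 cytosines per 100 bp. Fignl2 and Mn1 were the 2 coding elements with at least 3 regions among the 108 with any. Whether the regions of 1 gene move together more than regions of different genes was not tested.

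Genes related to Fignl2 by function were looked up in the list. Of the 21900 protein-coding genes of the gene table, 274 (1.25%) had a listed region, so few or none would be listed among 42 genes of any kind. None of 11 genes of severing ATPases and close relatives had a region, among them Fign and Fignl1, the other fidgetins, Spast (spastin), Katna1 (katanin) and Vps4a and Vps4b, which disassemble membrane-scission filaments. None of 31 further microtubule genes of neurons had one either, among them Mapt (tau), Map2, Tubb3 and Dcx (doublecortin). All 42 symbols were current in the gene table, and how deeply genes outside the list were covered was not analysed here. The 5 genes on each side of Fignl2 in the GRCm38 gene table had no listed region, including Scn8a, a voltage-gated sodium channel gene, Ankrd33, and the TGF-beta family receptor genes Acvrl1 and Acvr1b. Chromosome 15 had 9 listed regions. The nearest to Fignl2 was at Krt18, a keratin gene, 974545 bp away in the deposited coordinates, and on the other side the nearest was at Celsr1, 15104701 bp away.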

How the data were processed

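RRBS of hippocampal DNA gave 1 deposited table that compares 2 libraries. Source names gave the groups, and codes in the titles tied the columns to samples. The authors digested 500 ng of DNA with MspI, kept inserts of 40 to 220 bp and treated them with bisulfite in 2 rounds, per the labels' protocols. They trimmed reads with cutadapt and aligned them with SOAPaligner 2.21 at up to 5 mismatches, per the design text of the series, and the submitters' processing notes name CASAVA 1.8 and both mm9 and mm10. How regions were called and tested is not given in the sources used here. Per the file headers and values, the deposited methylation fraction is the share of methylated calls of a region, and the deposited depth (a coverage signal) is the mean number of reads per CpG cytosine. The deposited p-values are the authors' own.

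Level times depth times the number of cytosines gave whole calls (tolerance 1e-06) in 259 of 276 regions. For the third Fignl2 region they were whole at 76 cytosines, 2 more than listed and within the 78 of the reference, which makes 260. The other regions without whole calls were not searched beyond their listed number. The smallest number that gave whole calls was used. With the number of cytosines known, the calculation gave back the calls in 250 of 250 regions drawn at random, which follows from its construction. That check did not cover the search above the listed number that was used for the third region. Symbols on 70 promoter lines had lost letters and were restored, and no Fignl2 line was among those. Depth of the listed regions had a median of 24.5 reads per cytosine in the control (range 4.89 to 64.3) and 15.6 in the choline library (4.00 to 64.4). Intervals are exact Clopper-Pearson 95% intervals (scipy 1.17.1, Python 3.11.15). For reads as the unit, depth and level times depth were rounded to whole numbers. The diets were not tested, having 1 library each. Sequence and MspI sites came from the RefSeq GRCm38.p6 genome. Named are Fignl2, its neighbours (5 on each side), lists of related genes, the other genes with at least 3 regions, and the regions nearest to the third in cytosine number, up to 5 on each side. The gene, the lists and the alternatives were chosen with earlier results of these data known.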

Additional observations from a re-analysis of the deposited data

How the results depend on the processing

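The mean difference at Fignl2, 11.2 points, ranged from 10.7 to 11.3 with all calls summed, with weights by cytosine number, at a depth of at least 10 or 20 in both libraries, and with the second region and the third, which share an MspI fragment, joined. The last was added after the data were seen. A depth of at least 10 kept all 3 regions, and a depth of at least 20 left out the first. Since the 3 differences lay between 10.1 and 12.5 points, any weighting of them stays in that range, so this is no sign of stability. The number of regions with separate intervals was 3 on calls, also with Wilson intervals, and 0 with reads as the unit or with 2 reads per unit of depth. Those units divide the number of observations, so wider intervals follow from their construction, and no listed region had separate intervals with reads as the unit. Merging neighbours up to 100 or 500 bp apart gave 2 regions in place of 3. The share of listed regions higher in the choline library moved from 73.6% to 67.7% at a depth of at least 10 (192 regions), 82.9% with at least 20 cytosines (41 regions) and 81.1% in coding regions (106 regions), and the cause was not tested. The median cytosine density of Fignl2 lay above 96.7% of the other regions and above 95.1% of the other coding regions. With regions under 100 bp left out on both sides, it was the midpoint of the first region and the third alone. That midpoint lay above 100% of the 182 others, although regions of Npepl1 and Rbmxl2 were denser than the first region. No paired analysis was possible because each group had 1 library, and for the same reason no library could be left out.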
